A study of Mus musculus with 24 samples.

Results

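The miRNAs described here are 8 probes of the Dlk1-Dio3 imprinted cluster, measured in mouse serum exosomes, vesicles that cells shed into the circulation. They were taken by name from a table of 566 mouse miRNA probes: mmu-miR-540-3p, mmu-miR-127, mmu-miR-434-3p, mmu-miR-432, mmu-miR-379, mmu-miR-411, mmu-miR-376b and mmu-miR-382, written without the species prefix below. RNA of serum exosomes from male C57BL/6N mice at 40 weeks was counted on the NanoString nCounter mouse miRNA panel, in which barcoded probes are counted without amplification. There were 4 groups of 6 samples. WD+CCl4 mice received a western diet (high-fat food, and glucose at 18.9 g/L together with fructose at 23.1 g/L to drink) and an injection of carbon tetrachloride, a liver toxin, into the abdomen 1 time per week; the labels call this group HCC, that is liver cancer. ND+CCl4 mice received normal chow, tap water and carbon tetrachloride, and are labelled cirrhosis. WD+oil mice received the western diet and injections of corn oil, the vehicle, and are labelled NASH, that is fatty liver with inflammation. ND+oil mice received chow, tap water and corn oil, and are labelled normal. The labels do not say that each sample came from its own animal, so each p-value reflects the scatter among the samples at hand, which may be technical.

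The Dlk1-Dio3 domain on distal mouse chromosome 12 is imprinted: the protein genes Dlk1, Rtl1 and Dio3 are expressed from the paternal copy, and long non-coding RNAs that carry a large cluster of miRNAs are expressed from the maternal copy. The miRNAs are abundant in the embryo, the placenta and the adult brain and low in most adult tissues, and higher levels have been described in some liver tumours of mice and people. A miRNA recognises messenger RNAs mainly through its seed, the bases 2 to 8 from its 5′ end.

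The mature sequences of the members above background in some samples, and of a close relative of miR-376b, are shown so that their seeds, in capitals, can be compared (RefSeq, GRCm38.p6, plus strand, 5′ to 3′).
miR-540-3p: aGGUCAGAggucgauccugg
miR-434-3p: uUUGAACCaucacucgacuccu
miR-432: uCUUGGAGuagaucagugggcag
miR-376b-3p: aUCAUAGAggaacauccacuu
miR-376b-5p: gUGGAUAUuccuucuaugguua
miR-376a-3p: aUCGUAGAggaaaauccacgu
miR-382-5p: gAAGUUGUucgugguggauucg
miR-382-3p: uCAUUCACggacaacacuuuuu
They lie at chr12:109586122-109586141 (miR-540-3p), chr12:109594565-109594586 (miR-434-3p), chr12:109595006-109595028 (miR-432), chr12:109723508-109723528 (miR-376b-3p), chr12:109723471-109723492 (miR-376b-5p), chr12:109723824-109723844 (miR-376a-3p), chr12:109733781-109733802 (miR-382-5p) and chr12:109733819-109733840 (miR-382-3p). No pair of these seeds is the same. The panel names miR-376b and miR-382 without an arm, so both arms are shown; the probe sequences were not used here. miR-376b-3p and miR-376a-3p have the same base at 18 of 21 positions and different seeds.

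The 8 hairpins span 147767 bases. Those of miR-540, miR-127, miR-434 and miR-432 lie inside the interval of Rtl1, a retrotransposon-derived gene needed for the placenta, whose transcript the miRNAs made from its opposite strand are known to cut. The hairpins of miR-379, miR-411, miR-376b and miR-382 lie downstream and overlap no other gene interval of the RefSeq table used. miR-434 and miR-432 are the closest neighbours, with 356 bases between their hairpins, and 114029 bases separate miR-432 from miR-379.

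Depth differed between the libraries. The deposited value of a miRNA is its digital count times 1 factor per sample, and the whole counts could be recovered. Total miRNA counts ranged from 42478 to 1496818 with a median of 207119, and 69 to 213 of the 566 miRNAs exceeded the background limit of their library, set at the mean plus 2 SD of its 8 negative control probes (31.01 to 71.2 counts). Replicate 1 of WD+CCl4 (1328912 counts) and replicate 1 of ND+CCl4 (1496818 counts) had the highest totals, against at most 1115412 in the other 22 libraries. Totals also differed by replicate number, with a median of 69551 in replicates 1 to 3 and 254312 in replicates 4 to 6; the labels name no batch, and values within each of these sets are given where they differ. On the deposited scale the background limit lay between 16.8 and 277, since the factor of each library (0.397 to 5.72) also scales its background. In serum, fewer releasing cells and less miRNA per cell cannot be told apart.

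Of the 8 members, 5 exceeded the background limit in at least 1 sample and 3 never did. miR-540-3p was above it in 3 of 6 WD+CCl4, 2 of 6 ND+CCl4, 4 of 6 WD+oil and 0 of 6 ND+oil samples. miR-432 was above it in 4 WD+CCl4 samples and 1 ND+CCl4 sample, and in 3 WD+oil and 0 ND+oil samples. miR-376b was above it in 5 WD+CCl4, 3 ND+CCl4, 0 WD+oil and 0 ND+oil samples. miR-434-3p and miR-382 were above it only in CCl4 groups, miR-434-3p in 2 WD+CCl4 and 3 ND+CCl4 samples and miR-382 in 3 WD+CCl4 and 2 ND+CCl4 samples. The limit is set in counts, and depth differed between the groups. Library totals ran from 139911 to 1328912 in WD+CCl4 and from 46576 to 1496818 in ND+CCl4. They ran from 48664 to 265265 in WD+oil and from 42478 to 204535 in ND+oil. The part of depth in these detections was not tested. No member exceeded the limit in any ND+oil sample, and the same 5 members were detected with the mean plus 3 SD or with the highest negative control as the limit. miR-540-3p, miR-432 and miR-376b reached the limit in at least 6 of 24 samples and were tested among 158 miRNAs; miR-434-3p and miR-382, each above it in 5 samples, were not. Because a member enters the tested set through the groups in which it is high, the number of tested members that differ is no evidence about the cluster.

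**Figure D1:**
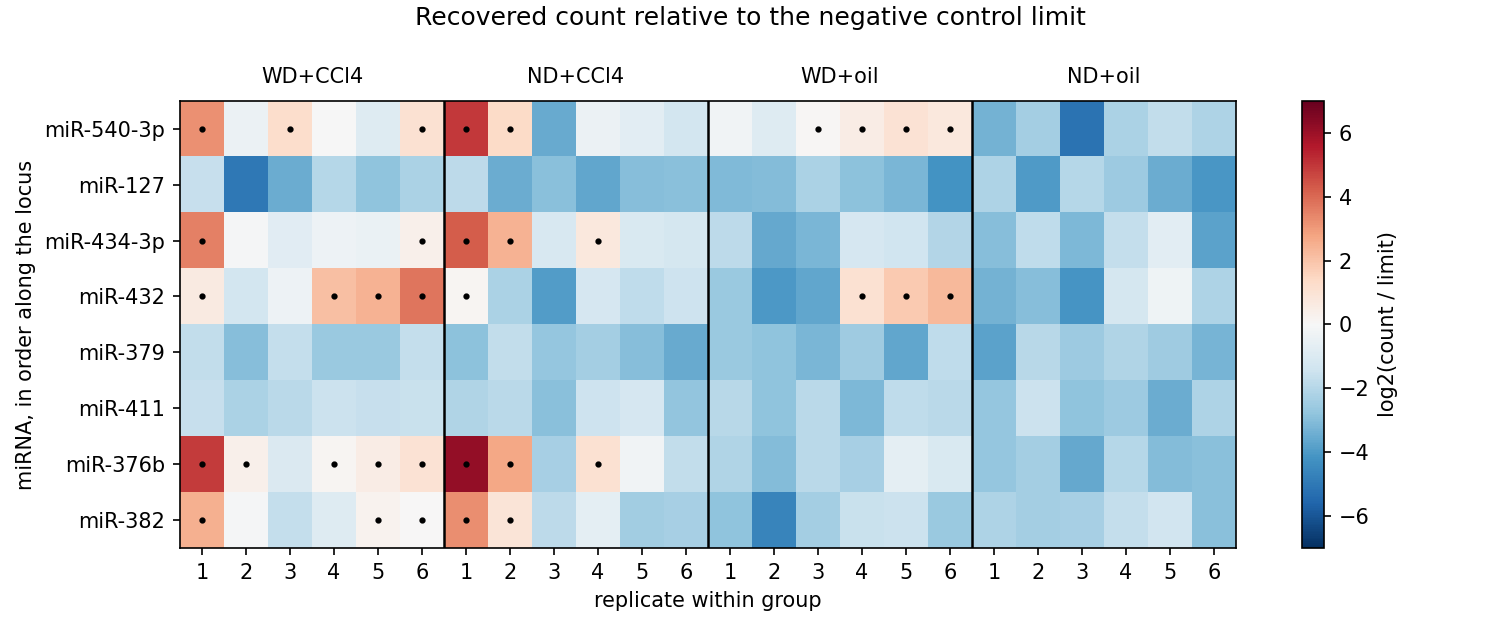
Heat map of the recovered count of each of the 8 miRNAs (rows, in order along the locus) in each of the 24 libraries (columns, by group and replicate), as log2 of the count over the background limit of that library; red is above the limit, blue below, and a dot marks a count above it. The 6 ND+oil libraries hold no dot, and miR-127, miR-379 and miR-411 hold none in any library.

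Replicate 1 of both CCl4 groups carried more than an equal share of the signal of 4 members, and of miR-432 in ND+CCl4 only. For miR-376b it gave 65.5% of the summed deposited values of the 6 WD+CCl4 samples and 68.2% of those of the 6 ND+CCl4 samples. For miR-540-3p it gave 30.95% in WD+CCl4 and 67.4% in ND+CCl4. Equal samples would give 1 part in 6 each. Replicate 1 of the oil groups also exceeded that for some members. Its shares in WD+oil and ND+oil were 22.2% and 24.7% for miR-376b and 20.3% and 17.8% for miR-540-3p. They were 34.5% and 15.1% for miR-434-3p, 22.5% and 24.9% for miR-382, and 5.04% and 13.6% for miR-432. For miR-434-3p the shares were 50.8% in WD+CCl4 and 37.9% in ND+CCl4, and for miR-382 they were 35.2% in WD+CCl4 and 42.0% in ND+CCl4. For miR-432 they were 3.33% in WD+CCl4 and 19.4% in ND+CCl4, where replicate 1 was the only sample with miR-432 above the limit and held 35.9% of its counts. These 2 libraries also stood apart in liver miRNAs: the sum of 5 hepatocyte miRNAs (miR-122, miR-192, miR-194, miR-148a and miR-802) was 109839 in replicate 1 of WD+CCl4 and 132186 in replicate 1 of ND+CCl4, against 4954 to 23009 in the other WD+CCl4 samples, 2919 to 14167 in the other ND+CCl4 samples, 7761 to 22420 in WD+oil and 1215 to 2222 in ND+oil. All 5 were above the limit somewhere, but miR-194 was above it in only 2 samples, these same 2 libraries. The part of liver miRNA in the levels of the cluster miRNAs was not tested.

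miR-540-3p, whose hairpin lies at the upstream end of the 8, was the tested member that passed between diets under corn oil. Its deposited values ran from 67.7 to 172 in WD+oil samples (median 113) and from 5.63 to 32.7 in ND+oil samples (median 14.7). Every WD+oil sample lay above every ND+oil sample, which held for 15.8% of the 158 tested miRNAs in either direction and 8.23% with WD+oil higher. In counts, WD+oil samples held 26 to 91 and ND+oil samples 1 to 15. The log2 difference was 2.82 (SE 0.68, limma, adjusted p = 0.0106), a fitted fold of 7.07. No ND+oil count reached its limit, so the background sets a bound. In replicates 4 to 6, where all 3 WD+oil counts exceeded the limit, miR-540-3p was at least 1.32-fold higher in WD+oil. Over all samples the same ratio was 1.06. There only 4 of 6 WD+oil counts exceeded their limit, so 1.06 is not a strict bound. The bound compares the mean of the higher group with the mean background limit of the lower one, both as log2 values.

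Within replicates 1 to 3, miR-540-3p read 140 to 172 in WD+oil and 5.63 to 32.7 in ND+oil, but only 1 of the 3 WD+oil counts exceeded its limit, and the log2 difference of 3.27 (SE 1.00) had a limma adjusted p of 0.238. Within replicates 4 to 6 it read 67.7 to 84.9 in WD+oil and 12.4 to 16.0 in ND+oil, and the log2 difference was 2.38 (SE 0.34, limma adjusted p = 0.000209). The test of the difference between these sets, replicates 4 to 6 minus 1 to 3, gave -0.89 (SE 1.09, limma adjusted p = 0.994). The call for WD+oil against ND+oil held in each of 24 fits that left out 1 sample (adjusted p from 0.00142 to 0.0348). It was lost with the spike-in probes as the scale (2.78, limma adjusted p = 0.357) and with edgeR over all probes (2.75, adjusted p = 0.140).

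In the CCl4 groups miR-540-3p was more scattered. Its values ran from 21.2 to 204 in WD+CCl4 (median 46.0) and from 21.2 to 523 in ND+CCl4 (median 25.2). In ND+CCl4 only replicates 1 (523) and 2 (159) stood above the background limit, and the other 4 samples read 21.2 to 26.8. Against ND+oil the log2 difference was 1.98 for WD+CCl4 (SE 0.68, limma adjusted p = 0.0468), and the groups overlapped between 21.2 and 32.7. The call held in 8 of 24 fits with 1 sample left out (adjusted p from 0.0118 to 0.114). It was lost without any 1 of the WD+oil or ND+oil samples or of WD+CCl4 replicates 1, 2, 3 and 6. Without replicate 1 of both CCl4 groups the difference was 1.71 (SE 0.55, limma adjusted p = 0.0322). For ND+CCl4 the difference of 1.85 (SE 0.68, limma adjusted p = 0.153) did not pass, and without those libraries it was 1.21 (SE 0.55, adjusted p = 0.258). No fold bound could be given for either CCl4 group, since the mean level there was below the mean background limit of ND+oil.

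miR-432, whose hairpin lies beside that of miR-434, was high in 6 libraries above all others, and all 6 were western diet samples of replicates 4 to 6. It read 142.3, 217 and 290 in WD+CCl4 replicates 4, 5 and 6 and 102, 137.4 and 245 in the same replicates of WD+oil. No other sample reached 100. The remaining WD+CCl4 samples read 25.6, 25.5 and 67.2, and the remaining WD+oil samples 27.3, 17.2 and 13.2. All ND+CCl4 samples lay between 11.5 and 23.95 and all ND+oil samples between 11.3 and 36.3. In counts the 6 high libraries held 211, 267 and 511 in WD+CCl4 and 95, 132 and 262 in WD+oil.

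Over all 6 replicates, miR-432 in WD+CCl4 lay above ND+CCl4 by a log2 difference of 2.40 (SE 0.66, limma adjusted p = 0.0952), which did not pass although every WD+CCl4 sample lay above every ND+CCl4 sample, as did 1.27% of the tested miRNAs. With the replicate number as a block, the same difference passed (SE 0.52, limma adjusted p = 0.0122). Samples of these groups varied together by replicate number, but the labels do not explain the numbers, so whether they are paired is not known. Without the block, the difference passed when replicate 1 of both CCl4 groups was left out (2.79, SE 0.69, limma adjusted p = 0.0190). It also passed without WD+CCl4 replicate 1 or 2 alone, or ND+CCl4 replicate 1 alone, among 24 fits with 1 sample left out (adjusted p from 0.0143 to 0.360). Against ND+oil, miR-432 rose in WD+CCl4 by 2.06 (SE 0.66, limma adjusted p = 0.0418), a call that held without both replicate 1 libraries (2.40, SE 0.66, adjusted p = 0.0150). It held in 15 of 24 fits with 1 sample left out (limma adjusted p from 0.0188 to 0.0844), and the samples whose removal lost it were replicates 3 to 6 of WD+CCl4 and all ND+oil replicates but number 5. WD+oil against ND+oil gave 1.37 (SE 0.66, limma adjusted p = 0.159), and ND+CCl4 against ND+oil -0.34 (SE 0.66, adjusted p = 0.778). With the replicate block, WD+oil against ND+oil did not pass either (SE 0.52, limma adjusted p = 0.0566).

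Split by replicate set, the diet difference of miR-432 appeared in replicates 4 to 6. There the log2 difference was 2.58 for WD+oil against ND+oil (SE 0.43, limma adjusted p = 0.000661), 3.04 for WD+CCl4 against ND+oil (adjusted p = 0.000188) and 3.67 for WD+CCl4 against ND+CCl4 (adjusted p = 8.23e-06). Relative to the background of the lower group, miR-432 was at least 2.60-fold higher in WD+oil than in ND+oil, at least 3.58-fold higher in WD+CCl4 than in ND+oil, and at least 4.82-fold higher in WD+CCl4 than in ND+CCl4. In these 3 comparisons 41.8%, 36.1% and 24.7% of the tested miRNAs did not overlap between groups of 3, so the separation alone is common there. In replicates 1 to 3 the same differences were 0.17, 1.08 and 1.12 (limma adjusted p = 0.923, 0.232 and 0.989). In that set the counts of miR-432 exceeded the limit in WD+CCl4 replicate 1 and ND+CCl4 replicate 1 alone. The test of the difference between the sets gave 2.41 (SE 0.71, limma adjusted p = 0.403) for WD+oil against ND+oil, 1.96 (adjusted p = 0.439) for WD+CCl4 against ND+oil and 2.55 (SE 0.71, adjusted p = 0.0501) for WD+CCl4 against ND+CCl4. The sets were thus not shown to differ for miR-432. Of the 158 tested miRNAs, 0 passed that test in each comparison with ND+oil (0%). For WD+CCl4 against ND+CCl4, 2 passed it (1.27%).

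**Figure D2:**
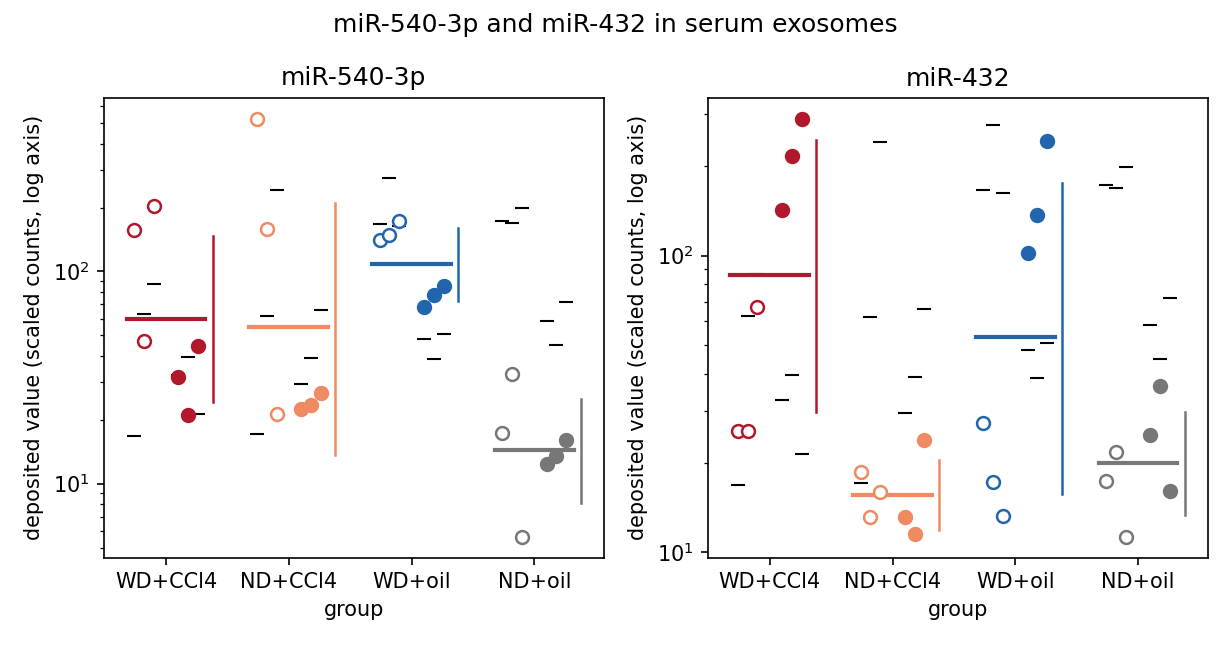
Deposited values (scaled counts, log axis) of miR-540-3p and miR-432 in the 4 groups; open points are replicates 1 to 3, filled points replicates 4 to 6, the short black dash at each point's position is the background limit of that library, the coloured bar is the mean of log2(value + 1) and the thin line its SD (n = 6). miR-540-3p reads 67.7 to 172 in WD+oil and 5.63 to 32.7 in ND+oil, and the 6 points of miR-432 above 100 are western diet replicates 4 to 6.

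miR-376b, which in human cells has been reported to act on autophagy genes, was detected in the CCl4 groups and in neither oil group. Its values ran from 35.1 to 492 in WD+CCl4 samples (median 49.9), from 20.1 to 1198 in ND+CCl4 samples (median 54.6), from 9.67 to 44.1 in WD+oil samples (median 29.3) and from 5.38 to 32.7 in ND+oil samples (median 15.9). The highest value of each CCl4 group was that of replicate 1, with 492 in WD+CCl4 and 1198 in ND+CCl4; the next were 80.6 in WD+CCl4 and 397 in ND+CCl4. In counts, miR-376b held 1078, 41, 22, 52, 69 and 77 in WD+CCl4 replicates 1 to 6, and 3016, 212, 9, 131, 61 and 21 in those of ND+CCl4. WD+oil counts were 6 to 26 and ND+oil counts 3 to 12.

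Every WD+CCl4 sample of miR-376b lay above every ND+oil sample, as did 5.70% of the tested miRNAs. The log2 difference was 2.20 (SE 0.78, limma adjusted p = 0.0545), which missed the threshold, and without replicate 1 of both CCl4 groups it was smaller, 1.65 (SE 0.58), and passed (adjusted p = 0.0404). It passed in 12 of 18 alternatives (adjusted p from 0.00211 to 0.232), among them limma with a term for the replicate sets (0.0135) and with background subtracted (0.0291). Leaving out 1 sample at a time gave adjusted p from 0.0155 to 0.167, with 4 of 24 fits passing, those without WD+CCl4 replicate 4 or ND+CCl4 replicate 1, 2 or 6. ND+CCl4 against ND+oil gave the larger difference, 2.65 (SE 0.78, limma adjusted p = 0.125), and 1.93 (SE 0.58, adjusted p = 0.121) without those libraries. It passed in 2 of 24 fits with 1 sample left out, without ND+CCl4 replicate 3 or 6 (limma adjusted p from 0.0277 to 0.334 over the 24). WD+oil against ND+oil gave 0.77 (SE 0.78, limma adjusted p = 0.554), with both groups below the limit in all samples.

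Within replicates 4 to 6, which do not hold these libraries, miR-376b read 35.1 to 56.2 in WD+CCl4 and 5.38 to 14.9 in ND+oil, and the log2 difference of 2.14 (SE 0.48) passed (limma adjusted p = 0.00413). ND+CCl4 read 20.1 to 61.4 there, a difference of 1.80 from ND+oil (SE 0.48, limma adjusted p = 0.0648). In replicates 1 to 3 the differences from ND+oil were 2.26 for WD+CCl4 and 3.49 for ND+CCl4 (SE 1.05, limma adjusted p = 0.232 and 0.178). The only comparison in which the mean exceeded the background limit of the lower group was ND+CCl4 in replicates 1 to 3, at 1.58-fold that of ND+oil. It is not a strict bound, since ND+CCl4 replicate 3, with 9 counts, was below its own limit. Replicates 1 to 3 hold ND+CCl4 replicate 1 (1198), and without replicate 1 of both groups no bound could be given.

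miR-434-3p and miR-382 were also highest in replicate 1 or 2 of the CCl4 groups. Neither was among the 158 tested miRNAs. Over all 566 probes, limma passed neither in ND+CCl4 against ND+oil (adjusted p = 0.277 for miR-434-3p and 0.501 for miR-382). There edgeR passed both (log2 difference 3.20, edgeR adjusted p = 0.00935 for miR-434-3p, and 2.003, adjusted p = 0.0420 for miR-382). The share of all 566 probes that edgeR passed was not counted, so these calls have no share to be set against. miR-434-3p read 196 in WD+CCl4 replicate 1 and 25.0 to 58.9 in the other WD+CCl4 samples, and 329 and 331 in ND+CCl4 replicates 1 and 2 and 18.6 to 112 in the other ND+CCl4 samples. It read 12.1 to 46.8 in WD+oil and 5.34 to 49.1 in ND+oil. The mean log2 difference from ND+oil was 1.19 for WD+CCl4 and 1.98 for ND+CCl4, and 0.79 and 1.58 without replicate 1 of both groups.

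miR-382 read 93.6 in WD+CCl4 replicate 1 and 17.5 to 58.9 in the other WD+CCl4 samples, and 163, 118 and 69.1 in ND+CCl4 replicates 1, 2 and 3 and 7.11 to 18.3 in replicates 4 to 6. It read 8.40 to 30.9 in WD+oil and 9.61 to 39.4 in ND+oil, where its counts were 2 to 15 in WD+oil and 6 to 15 in ND+oil. Its mean log2 difference from ND+oil was 0.66 for WD+CCl4 and 0.65 for ND+CCl4, and 0.40 and 0.22 without replicate 1 of both groups. Values of both CCl4 groups overlapped those of the oil groups.

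**Figure D3:**
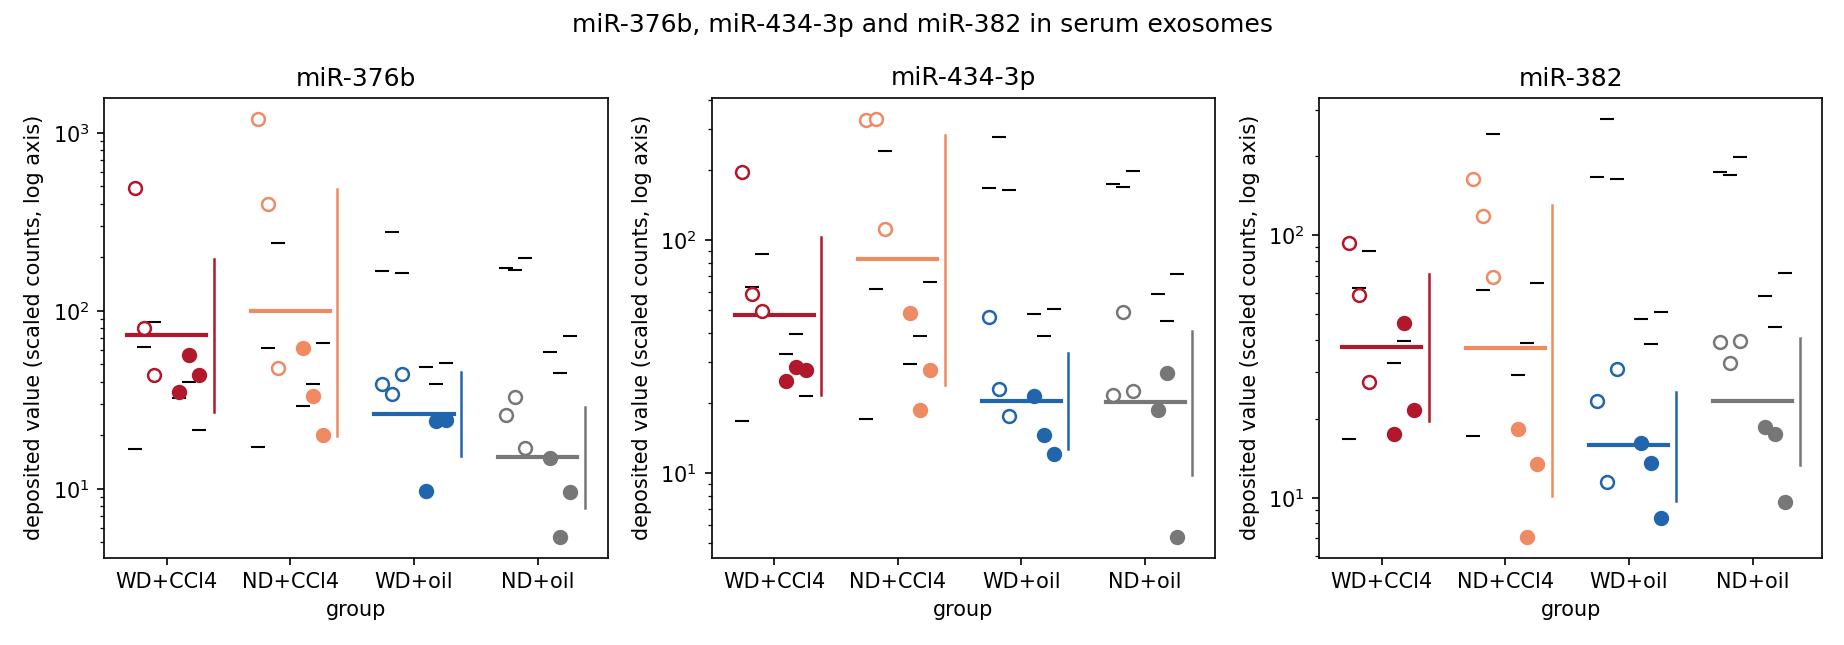
Deposited values (scaled counts, log axis) of miR-376b, miR-434-3p and miR-382 in the 4 groups, drawn with the same symbols: open points replicates 1 to 3, filled points replicates 4 to 6, black dashes the background limit of each library, coloured bars the mean of log2(value + 1) and thin lines its SD (n = 6). Points above their dash occur in WD+CCl4 and ND+CCl4 alone.

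miR-127, known in mice to cut the Rtl1 transcript, and miR-379 and miR-411, from the downstream cluster whose deletion in mice disturbs the energy balance of the newborn liver, stayed below the limit in all 24 samples. miR-127 held 1 to 12 counts in the CCl4 groups and 2 to 9 in the oil groups. miR-379 held 4 to 14 counts in WD+CCl4, 6 to 12 in ND+CCl4, 3 to 16 in WD+oil and 3 to 11 in ND+oil. miR-411 held 7 to 17 counts in WD+CCl4, 6 to 31 in ND+CCl4, 5 to 15 in WD+oil and 3 to 15 in ND+oil. The groups overlapped for each of the 3. Their deposited values followed the scaling factor of the library (Spearman correlation over 24 samples of 0.66 for miR-127, 0.89 for miR-379 and 0.75 for miR-411), so differences between their deposited values carry no level. In the deepest libraries the counts stayed low too: replicate 1 of WD+CCl4 held 12 counts of miR-127, 11 of miR-379 and 12 of miR-411, and replicate 1 of ND+CCl4 held 12, 6 and 10.

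The 5 group comparisons over all samples can be set side by side; the 3 against ND+oil share those 6 samples. For WD+oil against ND+oil, 17 of the 158 tested miRNAs passed (10.8%, limma, 8 higher and 9 lower), and of the members miR-540-3p did. For ND+CCl4 against ND+oil, 2 passed (1.27%) and no member. For WD+CCl4 against ND+oil, 25 passed (15.8%, 9 higher and 16 lower), among them miR-432 and miR-540-3p. The balance of higher and lower depended on scaling: with the spike-in probes as the scale 9 passed in that comparison and all 9 were higher, and with median centring 8 of 15 were higher; for WD+oil against ND+oil 1 of 1 and 7 of 23 were higher.

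Between the 2 western diet groups, WD+CCl4 and WD+oil, 0 of 158 miRNAs passed (0%, limma; 8 at an unadjusted p under 0.05, and 0 with edgeR). The members' log2 differences there were 1.43 for miR-376b (SE 0.78), -0.84 for miR-540-3p (SE 0.68) and 0.68 for miR-432 (SE 0.66), each with a limma adjusted p of 0.887 or more. miR-540-3p had its highest group median in WD+oil (113), above WD+CCl4 (46.0), but WD+CCl4 replicate 1, at 156, lay among the WD+oil values and replicate 3, at 204, above them. Between WD+CCl4 and ND+CCl4, 1 miRNA passed (0.633%), and no member. miR-540-3p differed there by 0.13 (SE 0.68) and miR-376b by -0.45 (SE 0.78), both within their standard errors.

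Counted with edgeR on the recovered counts, more members passed against ND+oil. No tested member was above the limit in any ND+oil sample, so each entered the tested set through the other groups. The number that passed is thus no evidence about the cluster. miR-540-3p was 2.47 higher in WD+CCl4 (edgeR adjusted p = 0.0251), 3.09 higher in ND+CCl4 (adjusted p = 0.0115) and 2.93 higher in WD+oil (adjusted p = 0.0204), all on the log2 scale. miR-432 was 2.73 higher in WD+CCl4 (edgeR adjusted p = 0.0177) and 2.26 higher in WD+oil (adjusted p = 0.0458), and 3.03 higher in WD+CCl4 than in ND+CCl4 (adjusted p = 0.0142). miR-376b was 3.10 higher in WD+CCl4 (edgeR adjusted p = 0.0251) and 4.28 higher in ND+CCl4 (adjusted p = 0.00638). Without replicate 1 of both CCl4 groups these edgeR differences of miR-376b were 1.97 for WD+CCl4 (adjusted p = 0.0356) and 3.17 for ND+CCl4 (adjusted p = 0.00372), and that of miR-540-3p in ND+CCl4 was 1.97 (adjusted p = 0.0448). The shares of tested miRNAs that edgeR called were 24.7% for WD+CCl4 against ND+oil, 7.59% for ND+CCl4 against ND+oil, 6.33% for WD+oil against ND+oil and 1.90% for WD+CCl4 against ND+CCl4.

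The share of all tested miRNAs that passed also varied with the samples and the block, and the members' calls stand against it. Without replicate 1 of both CCl4 groups, limma called 32.9% for WD+oil against ND+oil, 27.2% for WD+CCl4 against ND+oil, 1.27% for ND+CCl4 against ND+oil and 5.06% for WD+CCl4 against ND+CCl4. With the replicate block it called 29.7% for WD+CCl4 against ND+oil, 12% for ND+CCl4 against ND+oil, 23.4% for WD+oil against ND+oil and 1.90% for WD+CCl4 against ND+CCl4. In replicates 4 to 6 alone it called 19.0% for WD+CCl4 against ND+oil, 25.3% for WD+oil against ND+oil and 12.7% for WD+CCl4 against ND+CCl4. Over all 566 probes without a filter it called 1.77% for WD+CCl4 against ND+oil, 0.353% for ND+CCl4 against ND+oil, 0.883% for WD+oil against ND+oil and 0.177% for WD+CCl4 against ND+CCl4, and of the members miR-540-3p in WD+oil against ND+oil (limma adjusted p = 0.0155).

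The interaction, the diet difference under CCl4 minus that under oil, gave 0 of 158 calls (0%, limma; 6 at an unadjusted p under 0.05, and 0 with edgeR). It was -2.69 for miR-540-3p (SE 0.96, limma adjusted p = 0.459), 1.02 for miR-432 (SE 0.93, adjusted p = 0.926) and -1.21 for miR-376b (SE 1.11, adjusted p = 0.926). In replicates 4 to 6 alone that of miR-540-3p passed (-2.03, SE 0.48, limma adjusted p = 0.0472), where 1.27% of the tested miRNAs did, and in replicates 1 to 3 it was -3.36 (SE 1.41, adjusted p = 0.976).

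**Figure D4:**
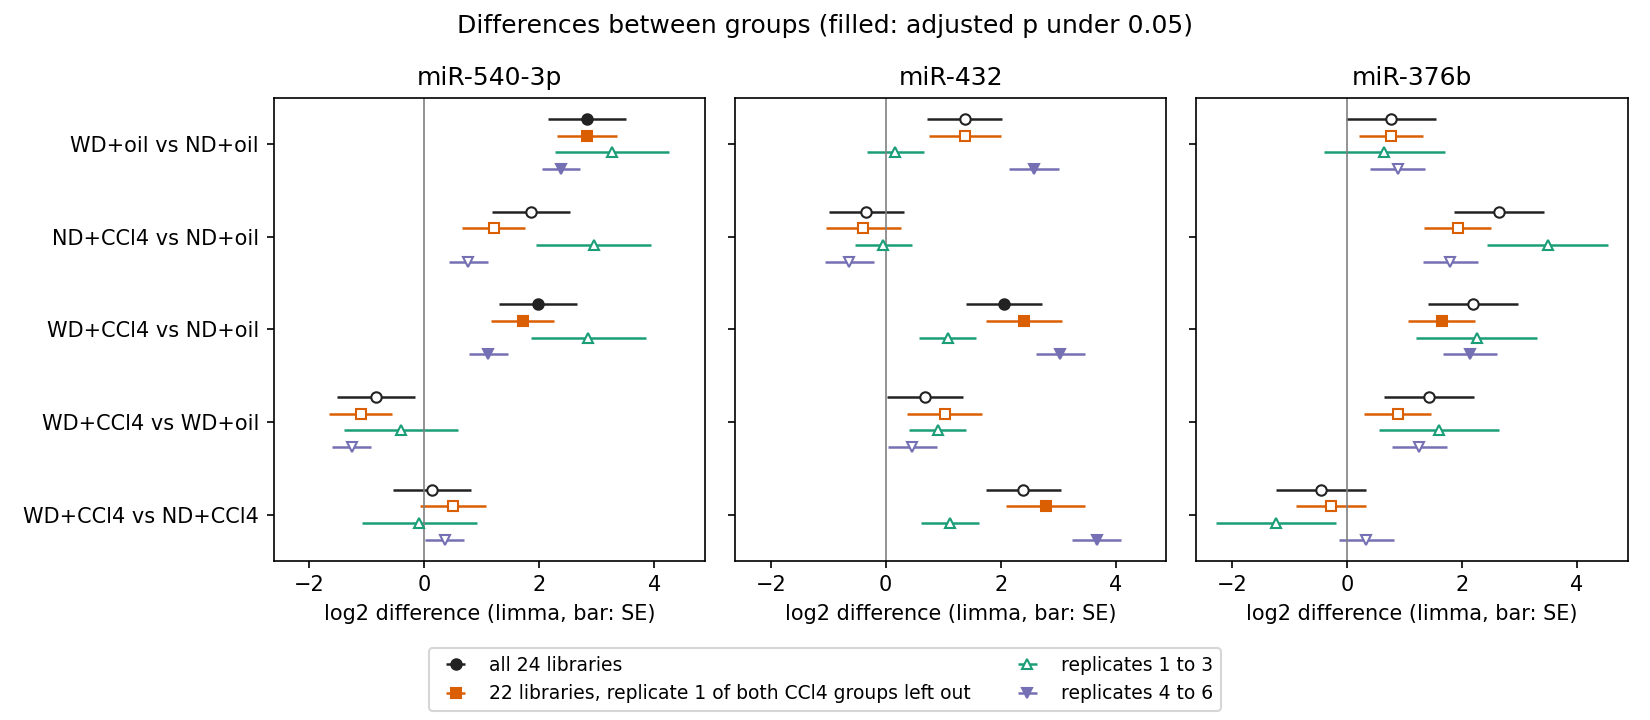
Log2 differences between groups for the 3 tested members (point, limma estimate; bar, SE), over all 24 libraries, without replicate 1 of both CCl4 groups, and within replicates 1 to 3 or 4 to 6; filled symbols have an adjusted p under 0.05. miR-432 differs between diets in replicates 4 to 6 (2.58 for WD+oil against ND+oil) and by 0.17 in replicates 1 to 3, while miR-540-3p differs by 2.38 in replicates 4 to 6 and by 3.27 in replicates 1 to 3.

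The levels of the members within the groups did not follow one order. For miR-540-3p the mean of log2(value + 1) was 5.93 ± 1.28 in WD+CCl4, 5.80 ± 1.92 in ND+CCl4, 6.77 ± 0.56 in WD+oil and 3.95 ± 0.76 in ND+oil (SD, n = 6 each). For miR-432 it was 6.45 ± 1.50 in WD+CCl4, 4.05 ± 0.37 in ND+CCl4, 5.76 ± 1.70 in WD+oil and 4.39 ± 0.55 in ND+oil. For miR-376b it was 6.21 ± 1.40 in WD+CCl4, 6.66 ± 2.27 in ND+CCl4, 4.78 ± 0.75 in WD+oil and 4.01 ± 0.88 in ND+oil. From high to low, miR-540-3p ran WD+oil, WD+CCl4, ND+CCl4, ND+oil. miR-432 ran WD+CCl4, WD+oil, ND+oil, ND+CCl4, and miR-376b ran ND+CCl4, WD+CCl4, WD+oil, ND+oil. No neighbouring pair in these orders passed the limma test.

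Across samples miR-432 varied apart from its neighbour. The Spearman correlation of deposited values over the 24 samples was -0.09 between miR-432 and miR-434-3p, whose hairpins are 356 bases apart, and -0.10 between miR-432 and miR-376b. It was 0.74 between miR-434-3p and miR-376b, 0.74 between miR-434-3p and miR-382, and 0.68 between miR-376b and miR-382, and over the 22 samples without replicate 1 of both CCl4 groups it was 0.66, 0.66 and 0.59. For miR-540-3p it was 0.55 with miR-376b, 0.34 with miR-434-3p, 0.20 with miR-382 and 0.16 with miR-432. Over those 22 samples these were 0.43, 0.17, -0.02 and 0.20. The samples share library depth and scaling, and many of these values are below background, so the correlations describe these libraries.

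Among the 158 kept miRNAs, those most like miR-540-3p over 24 samples were miR-30a (Spearman correlation 0.84, and 0.82 over 22) and miR-27b (0.81 and 0.77). Those most like miR-432 were miR-483 (0.81 and 0.85) and miR-1897-3p (0.78 and 0.80). Those most like miR-376b were miR-30c (0.77 and 0.71) and the hepatocyte miRNA miR-122 (0.74 and 0.66). For miR-434-3p they were miR-376c (0.74 and 0.66) and miR-376b (0.74 and 0.66), and for miR-382 miR-410 (0.71 and 0.62) and miR-376c (0.70 and 0.61), all of the same locus. For the members below background they were miR-202-5p and miR-135a (miR-127), miR-135a and miR-547 (miR-379), and miR-1937c and miR-202-5p (miR-411).

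miR-122, which makes up most of the miRNA in hepatocytes, read 44112 and 60750 in replicate 1 of WD+CCl4 and ND+CCl4, 1455 to 13358 in the other WD+CCl4 samples, 809 to 6961 in the other ND+CCl4 samples, 2949 to 10211 in WD+oil and 78.0 to 313 in ND+oil. Its correlation with the members was 0.67 for miR-540-3p, 0.74 for miR-376b, 0.46 for miR-434-3p, 0.46 for miR-382 and 0.15 for miR-432. Over the 22 samples without replicate 1 of both CCl4 groups it was 0.60 for miR-540-3p, 0.66 for miR-376b, 0.31 for miR-434-3p, 0.30 for miR-382 and 0.18 for miR-432. The red cell miRNA miR-451 read 19016 to 115490 in WD+CCl4, 30508 to 399950 in ND+CCl4, 27083 to 80511 in WD+oil and 44684 to 106800 in ND+oil, with correlations between -0.28 and 0.16 with these members over 24 samples and between -0.10 and 0.31 over 22. The summed myeloid list (miR-223, miR-142-3p and miR-142-5p) was lowest in the same 2 libraries, at 2231 in WD+CCl4 and 2323 in ND+CCl4, against 13372 to 25722 in the other WD+CCl4 samples, 14712 to 22756 in the other ND+CCl4 samples, 8334 to 20402 in WD+oil and 20511 to 29795 in ND+oil. Of the neuronal list, miR-9, miR-124 and miR-153 never exceeded the limit. The others did: miR-138 in 12 of 24 samples (4 WD+CCl4, 4 ND+CCl4, 3 WD+oil and 1 ND+oil), miR-219 in 9 and miR-137 in 1. The summed neuronal list read 87.0 to 492 in WD+CCl4, 109 to 395 in ND+CCl4, 93.7 to 309 in WD+oil and 91.5 to 392 in ND+oil. Whether liver, red cell or other sources contributed to the members' levels was not tested.

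A wider list of 64 miRNAs of the locus on the panel was counted against the same limit. In replicate 1 of WD+CCl4 22 of the 64 exceeded it and in replicate 1 of ND+CCl4 26, against 0 to 17 (median 3.5) in the other 22 libraries; all 22 of the first were among the 26. Many other probes also exceeded the limit in these libraries: 34.4% of the list and 36.7% of all probes exceeded the limit in replicate 1 of WD+CCl4, and 40.6% of the list and 35.9% of all probes in replicate 1 of ND+CCl4. Over all libraries 27 exceeded it at least 1 time and 37 never did, and 7 did so only in these 2 libraries. The next highest libraries were WD+CCl4 replicate 6 with 17, which had the most probes of any kind above the limit (213), and ND+CCl4 replicate 2 with 15. ND+oil libraries held 0 to 3 and WD+oil libraries 0 to 5. Libraries with more total counts tended to show more of them. ND+CCl4 replicate 5, with 1115412 counts, showed 4, but 731369 of its counts were miR-451 and its background limit was the highest (71.2 counts). The part of depth in these numbers was not tested.

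**Figure D5:**
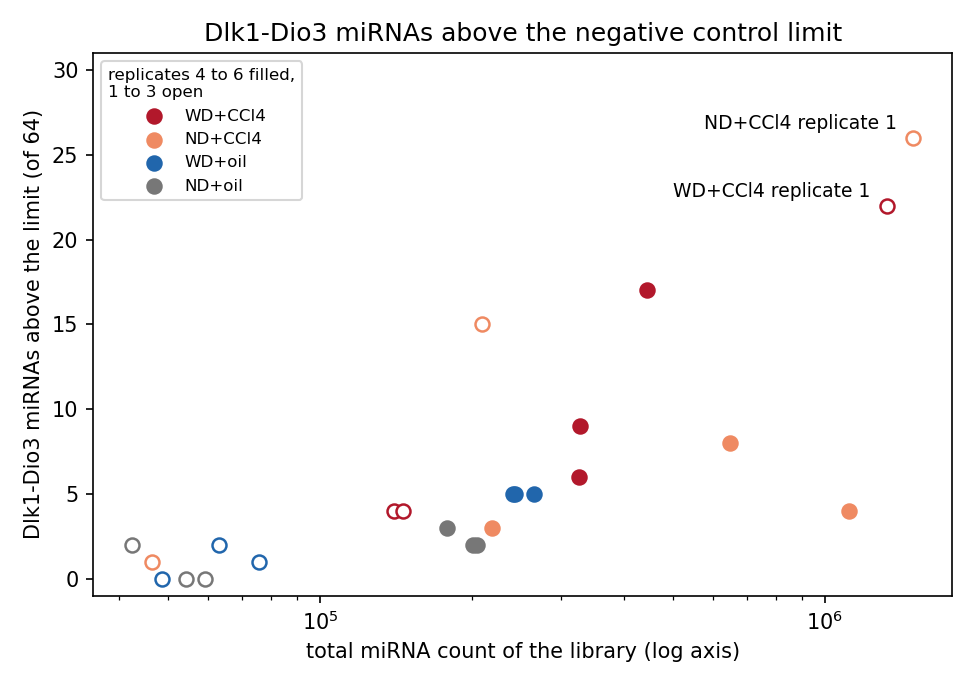
Number of Dlk1-Dio3 miRNAs above the background limit, of 64 on the panel, against the total miRNA count of each library (log axis); points are the 24 libraries coloured by group, open for replicates 1 to 3 and filled for replicates 4 to 6. Replicate 1 of WD+CCl4 holds 22 and replicate 1 of ND+CCl4 holds 26. ND+CCl4 replicate 5, with 1115412 counts, of which 731369 are miR-451, holds 4.

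Of this list 9 miRNAs were tested, the 3 members and miR-136, miR-370, miR-376a, miR-376c, miR-377 and miR-410, and none of these other 6 passed over all samples (limma adjusted p of 0.106 or more). Some did under other settings. miR-370 passed in WD+oil against ND+oil with the replicate block (limma adjusted p = 0.0484) and without replicate 1 of both CCl4 groups (0.0242), and in WD+CCl4 against ND+oil without those libraries (0.0204), with background subtracted (0.0332) and with edgeR (0.0316). miR-376c and miR-410 passed in ND+CCl4 against ND+oil with edgeR (lowest adjusted p = 0.0169). Of all tested miRNAs, 23.4% passed in WD+oil against ND+oil with the block and 32.9% without those libraries. In WD+CCl4 against ND+oil 27.2% passed without those libraries and 24.7% with edgeR. In ND+CCl4 against ND+oil 7.59% passed with edgeR. The share with background subtracted was not counted. The median log2 difference of the 9 from ND+oil was 0.85 in WD+CCl4 (-0.17 over all 158), 0.71 in ND+CCl4 (-0.16) and 0.25 in WD+oil (-0.14). These medians leave out the miRNAs of the locus that did not reach the limit in 6 samples, and describe only the 9. miR-376b, miR-376c and miR-410 were above the limit in 0 WD+oil and 0 ND+oil samples. They entered the 9 through the CCl4 groups alone, so the medians are no evidence about the locus. miR-376c, a near relative of miR-376b, read 22.3 to 184 in WD+CCl4 and 19.7 to 531 in ND+CCl4, with replicate 1 the highest in both, 12.5 to 74.3 in WD+oil and 11.8 to 39.1 in ND+oil. miR-136, from the Rtl1 interval, had its highest values in replicate 1 of the CCl4 groups too, 533 in WD+CCl4 and 1666 in ND+CCl4, against 105 to 222.9 in WD+oil and 125 to 315 in ND+oil. miR-370 had its lowest WD+CCl4 value in replicate 1 (11.9, group median 46.6), and in ND+CCl4 replicate 1 read 21.4 (group median 36.7). miR-376a also went the other way: replicate 1 held the lowest value of each CCl4 group, 57.1 of values up to 1436 in WD+CCl4 and 61.2 of values up to 1833 in ND+CCl4, although its hairpin lies close to that of miR-376b. miR-376a was above the limit in 21 of 24 samples, among them 4 of 6 ND+oil samples, whose values ran from 87.2 to 1680.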

How the data were processed

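The 24 samples were mapped to 4 groups of 6 from their titles. The authors deposited 1 table of 626 features, whose unit is signal (digital counts after scaling). The sources used here do not name the scaling, the imaging software or the exosome isolation. As the values show, miRNA counts had been multiplied by 1 factor per sample (0.397 to 5.72), and negative control probes were unscaled. Division by that factor left whole counts, within 0.05, for all 14571 values over 1 (100%). A further 117 values were listed as 1, with 2 among tested miRNAs and 0 among the members. Intervals of counting were not added, since the total counts (42478 to 1496818) and the control probes set the precision.

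To be tested, a miRNA had to lie above its library's limit (the 8 negative controls' mean plus 2 SD) in 6 or more of 24 samples; 158 did. limma (version 3.58.1, R 4.3.3) was fitted on log2(deposited value + 1) with 4 group means over all samples and a trended variance, two-sided, with Benjamini-Hochberg adjustment over the 158 miRNAs within each comparison and a threshold of 0.05. Fold changes on this scale understate low miRNAs. Alternatives were DESeq2 1.42.0 and edgeR 4.0.16 on the whole counts, other filters, limits, pseudocounts, scalings, blocks and left-out libraries. The splits by replicates 1 to 3 and 4 to 6, edgeR without a filter and combined settings were added after the data were seen. Only the limma fit of WD+oil against ND+oil was tried on simulated counts. These held no outlying libraries and no difference between replicate sets. The other comparisons, edgeR, DESeq2, the block and the splits were not tried on them. All 8 members are named in each comparison, together with the other tested miRNAs of the locus, the 2 miRNAs with the highest Spearman correlation to each member, and miR-122 and miR-451. The members and lists were chosen with earlier results of these data known.

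Pairing by replicate number was checked through the correlation of deviations from group means: all 6 pairs exceeded 0.1 for WD+CCl4 with ND+CCl4 (0.28 to 0.84) and for WD+oil with ND+oil (0.32 to 0.75), and 3 to 5 of 6 did for the other pairs of groups. The pairing comes from the data, as the labels do not explain the numbers. Sequences and coordinates are from RefSeq (GRCm38.p6), matched by miRNA name, and each of the 8 members had an entry; miR-376c-3p had none.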

Additional observations from a re-analysis of the deposited data

Results flagged for a closer look

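In 2 of 32 groups of 6 (8 members by 4 groups) 1 sample lay far from the other 5 by Dixon's test of the gap at the 95% level; chance gives about 1 in 20. miR-376b read 492 in WD+CCl4 replicate 1, against 80.6 in the next sample of that group, with 1078 counts behind it. miR-379 read 27.7 in WD+CCl4 replicate 3, against 7.86 in the next sample, from 14 counts, which is below the background limit of that library. miR-376b also read 1198 in ND+CCl4 replicate 1, but there the next sample, at 397, was too close for the same test.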

How the results depend on the processing

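The number of tested members past the threshold depended on the setting. For WD+oil against ND+oil it was 1, and 2 with edgeR, DESeq2, a term for the replicate sets, replicates 4 to 6 alone or edgeR without replicate 1 of both CCl4 groups, and 0 with spike-in scaling, replicates 1 to 3 alone or edgeR without a filter; leaving out 1 sample gave 1 to 1. For ND+CCl4 against ND+oil it was 0, and 2 with edgeR, DESeq2, the replicate block or edgeR without those libraries, 1 with spike-in scaling or the set term, and 4 of 8 with edgeR without a filter; leaving out 1 sample gave 0 to 1. For WD+CCl4 against ND+oil it was 2, and 1 with a pseudocount of 10 or median centring, 0 without a filter or in replicates 1 to 3, and 3 with edgeR (also without a filter), DESeq2, the replicate block, the set term, background subtracted, only the groups compared, replicates 4 to 6, or without replicate 1 of both CCl4 groups; leaving out 1 sample gave 0 to 3. For WD+CCl4 against ND+CCl4 it was 0, and 1 with edgeR, DESeq2, the replicate block, the set term, replicates 4 to 6, edgeR without a filter, or limma or edgeR without replicate 1 of both CCl4 groups; leaving out 1 sample gave 0 to 1. For the interaction it was 0, and 1 with DESeq2 or in replicates 4 to 6; leaving out 1 sample gave 0 to 0. For WD+CCl4 against WD+oil it was 0 under each setting. The cause of these moves was not tested, beyond fewer samples in the split fits and more tests without a filter. With spike-in scaling, 3 of 158 miRNAs passed for ND+CCl4 against ND+oil. The share of all miRNAs passing was not counted for DESeq2, the set term or edgeR without a filter. Nor was it counted for edgeR without replicate 1 of both CCl4 groups, background subtracted, a pseudocount of 10 or only the groups compared. The members' counts in those settings have no share to be set against.

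With the replicate block, miR-376b and miR-540-3p passed for ND+CCl4 against ND+oil (limma adjusted p = 0.00672 and 0.0458), as did miR-376c and miR-410 (lowest adjusted p = 0.0458), and miR-376b passed for WD+CCl4 against ND+oil (0.00771); the numbers were not shown to pair the samples of these groups. The block also moved all calls over 158 miRNAs, to 37 for WD+oil against ND+oil (17 without) and to 3 for WD+CCl4 against ND+CCl4 (1 without). It moved them to 19 for ND+CCl4 against ND+oil (2 without) and to 47 for WD+CCl4 against ND+oil (25 without). miR-540-3p in WD+oil against ND+oil kept its direction in 18 of 18 alternatives beside the left-out samples (2.24 to 5.04) and its call in 15, losing it with spike-in scaling (2.78, adjusted p = 0.357), replicates 1 to 3 (adjusted p = 0.238) and edgeR without a filter (adjusted p = 0.140).

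Directions turned in comparisons where no member passed. With spike-in scaling the median of all tested miRNAs moved to 1.22, 1.24 and 1.29 for ND+CCl4 against ND+oil, WD+CCl4 against ND+oil and WD+CCl4 against WD+oil (-0.16, -0.17 and 0.00 otherwise); miR-432 was then 0.95 in the first and miR-540-3p 0.48 in the last, or -0.27 and -0.81 relative to that median. edgeR without a filter gave miR-540-3p 0.061 in WD+CCl4 against WD+oil. In WD+CCl4 against ND+CCl4 miR-540-3p was -0.62 with edgeR, -0.78 with DESeq2, -0.089 in replicates 1 to 3, -0.93 with edgeR without a filter and -0.22 to 0.78 with 1 sample left out, and miR-376b was 0.33 with background subtracted, 0.34 in replicates 4 to 6, 0.66 with background subtracted and both replicate 1 libraries left out, and -0.99 to 0.27 with 1 sample left out. Its interaction was 0.14 in that combined setting. A filter of at least 12 of 24 samples kept no member and gave no value. In the oil groups most members' counts lay below the negative control limit, as did many counts in the CCl4 groups. The part of depth in this was not tested.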
